A study of Sus scrofa with 16 samples.

Results

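The liver X receptors and a set of cholesterol genes were examined in the pituitary of 16 Puławska gilts. The set held 8 genes, chosen by symbol among the 25880 genes of the count table: the receptors NR1H3 and NR1H2, the lipid acceptors APOE and APOA1, the transporters ABCA1 and ABCG1, the regulator SREBF2 and the synthesis enzyme SQLE. RNA sequencing was performed on the glands of 8 gilts selected for a low feed conversion ratio, called LFC (replicates 1 to 8), and of 8 selected for a high ratio, called HFC (replicates 9 to 16), the ratio being the feed used for a given gain of body mass. All animals were females of the same native breed, and the groups were formed by selection on a trait and not by a treatment. The labels give an age of 3 months for every gilt, whereas the study's methods place slaughter at a later age. Whole glands were taken, so hormone cells, pituicytes, vessels and immune cells were read together, and fewer cells of a type and less RNA per cell cannot be told apart. Total counts ranged from 10.97 M to 23.06 M per library and averaged 18.4 ± 3.36 M for LFC against 15.2 ± 3.24 M for HFC (SD, n = 8 each).

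Liver X receptors are nuclear receptors that bind oxysterols, the oxidised products of cholesterol, and act on DNA as partners of retinoid X receptors. When sterol is plentiful they raise genes that move cholesterol out of the cell, among them ABCA1, ABCG1 and APOE, and they raise SREBF1, which drives fatty acid synthesis. SREBP2, the product of SREBF2, works in the opposite state: it is cut free from the membrane when sterol is scarce and raises genes of cholesterol synthesis and of lipoprotein uptake. In nervous tissue APOE and the ABC transporters pass cholesterol between glia and other cells, and macrophages and microglia are well known for liver X receptor activity. Steroid-making and secretory cells also draw on this cholesterol pool.

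None of the 8 genes was called between the groups when an adjusted p no higher than 0.05 and a 1.3-fold change were both asked, by edgeR's quasi-likelihood test over 14319 genes. In that test 0% of all genes tested were called, and the smallest adjusted p was 0.612. Of the 8 genes 2, NR1H3 and SQLE, had an unadjusted p under 0.05, as did 5.82% of all genes tested (834 genes). Higher in HFC with such a p were 1 of the 8, NR1H3, and 4.29% of all genes tested, and lower were 1 of the 8, SQLE, and 1.53% of all. In no gene of the set did the CPM (counts scaled to the total of each library) of the groups separate without overlap, which 0.00698% of all genes tested did. Without LFC replicate 5, APOE and APOA1 also had an unadjusted p under 0.05, which made 4 of the 8 genes. Of the 14395 genes tested in that fit 1716 had such a p, and none was called. In limma-voom 3 of the 8 genes, NR1H3, SQLE and APOE, had an unadjusted p under 0.05, as did 556 of the 14319 genes tested. DESeq2 called 5 genes and limma-voom called 0, and no gene of the set was among them. Since no gene passed, the values that follow are levels and estimated differences with their errors, and a p that missed the threshold does not show that the groups were alike. All 8 genes passed the filter on low counts. Fold changes are given on the log2 scale as HFC over LFC, and their median over all genes tested was -0.01.

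**Figure D1:**
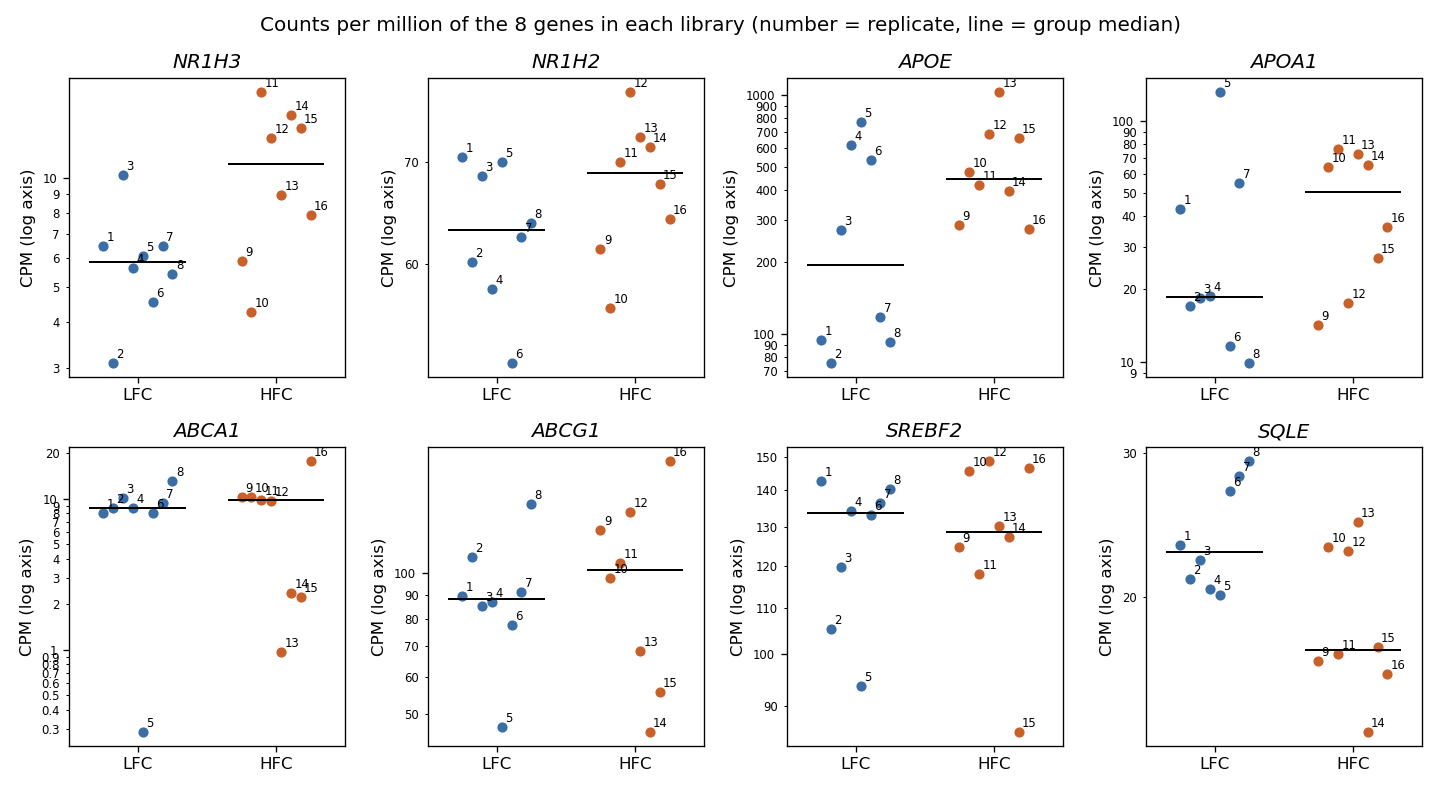
Each panel shows 1 gene, with the group on the horizontal axis and CPM on a logarithmic vertical axis, 1 point per library with its replicate number and a line at the group median. NR1H3 lay above the highest LFC library in 4 HFC libraries, SQLE lay below the lowest LFC library in 5, and ABCA1 was lowest in LFC replicate 5 and HFC replicates 13, 14 and 15.

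Of the receptors, NR1H3, which encodes liver X receptor alpha, showed the larger estimated difference. Its level ranged from 3.09 to 10.2 CPM in LFC with a median of 5.85 CPM, and from 4.27 to 17.2 CPM in HFC with a median of 10.9 CPM. The groups overlapped: HFC replicates 11, 12, 14 and 15 lay above every LFC library, HFC replicate 10 lay low, and LFC replicate 3 stood above the rest of its group. LFC glands averaged 5.99 ± 2.03 CPM against 10.7 ± 4.63 CPM across HFC glands (SD, n = 8 each), which gave a fitted log2 fold change of 0.86 ± 0.30 (SE), or 1.82-fold. The 95% interval of the log2 fold change was 0.24 to 1.49, and edgeR gave an adjusted p of 0.647. NR1H3 ranked at place 219 by p among the genes tested. Its estimate stayed between 0.75 and 1.003 when any single library was left out, and was 0.68, with an unadjusted p no longer under 0.05 (edgeR, adjusted p = 0.516), without LFC replicate 5 and HFC replicates 13, 14 and 15.

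The counted model of NR1H3 (ENSSSCG00000013241, chromosome 2, 15270789 to 15336804, Sscrofa11.1) spans more than the receptor. In the RefSeq annotation of the same assembly it overlaps MADD, a regulator of Rab proteins, and the end of ACP2, a lysosomal acid phosphatase, while RefSeq places NR1H3 itself at 15315283 to 15336785. The libraries keep no strand, so reads from these neighbours may be hard to separate from those of NR1H3. MADD and ACP2 were looked at after the values of NR1H3 had been seen. MADD averaged 229 ± 37.3 CPM across LFC and 207 ± 44.9 CPM across HFC glands (SD, n = 8 each), with a log2 fold change of -0.14 ± 0.11 (SE), which has the opposite sign to that of NR1H3. ACP2 averaged 30.3 ± 2.60 CPM across LFC and 32.8 ± 4.07 CPM across HFC glands, with a log2 fold change of 0.11 ± 0.13 (SE). The part of reads from these neighbours in the level of NR1H3 was not tested.

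NR1H2, which encodes the widely expressed liver X receptor beta, had the lowest coefficient of variation of CPM in the set. Its level ranged from 51.6 to 70.5 CPM in LFC with a median of 63.2 CPM, and from 56.2 to 77.8 CPM in HFC with a median of 68.8 CPM. The groups overlapped over most of their range, and its coefficient of variation over the 16 libraries was 10.6%, against 50.6% for NR1H3. The log2 fold change was 0.10 ± 0.13 (SE), with a 95% interval from -0.17 to 0.38. In this fit, which is TMM-scaled, SREBF2 had a smaller SE, at 0.11. NR1H2 lies on chromosome 6 at 55238579 to 55246688.

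Among the 7 genes of the receptor list, which adds the retinoid X receptors and other partners, 5 had a positive log2 fold change and 2 a negative one. NR1H3 was the only gene of this list with an unadjusted p under 0.05, the median of the list was 0.05, and 48.4% of all genes tested had a positive value. Without NR1H3, the estimate farthest from 0 was that of RXRG, a retinoid X receptor found in the pituitary, at -0.44, chosen after its value was seen.

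APOE, the apolipoprotein that carries cholesterol between cells in nervous tissue, split the LFC group. It ranged from 75.4 to 771 CPM in LFC with a median of 195 CPM, and from 273 to 1030 CPM in HFC with a median of 446 CPM. LFC replicates 1, 2, 7 and 8 lay near or below 118 CPM while LFC replicates 4, 5 and 6 lay within the HFC range, and HFC replicate 13 was the only HFC library above all of LFC. All 8 HFC libraries were above the LFC median. LFC glands averaged 322 ± 279 CPM against 528 ± 254 CPM across HFC glands (SD, n = 8 each), which gave a fitted log2 fold change of 0.64 ± 0.53 (SE), with a 95% interval from -0.48 to 1.76 (edgeR, adjusted p = 0.9999). The size of this estimate depended on how libraries were weighted: it was 1.11 without LFC replicate 5 (edgeR, adjusted p = 0.397), 0.40 without HFC replicate 13 and 1.14 in limma-voom (adjusted p = 0.9998). APOE lies on chromosome 6 at 51372241 to 51375617.

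APOA1 encodes the main protein of high-density lipoprotein and is best known from liver and intestine, yet counts of it were present in every gland. It ranged from 9.86 to 131 CPM in LFC with a median of 18.6 CPM, and from 14.1 to 76.2 CPM in HFC with a median of 50.3 CPM. The groups overlapped throughout, and LFC replicate 5 held the highest value of all 16 libraries. The log2 fold change was 0.17 ± 0.58 (SE), with a 95% interval from -1.04 to 1.39. Without LFC replicate 5 it was 1.02 (edgeR, adjusted p = 0.393), and without HFC replicate 13 it was 0.03. APOA1 lies on chromosome 9 at 44214596 to 44218978.

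Of 7 hepatocyte markers with a row, 2 passed the filter on low counts. SERPINA1 had no count in any library, APOA2 reached at most 0.09 CPM in LFC and 0.05 CPM in HFC, and ALB, which passed, ranged from 0.78 to 5.01 CPM in LFC and from 0.94 to 16.3 CPM in HFC. FGB, the other that passed, ranged from 1.01 to 3.24 CPM in LFC and from 0.87 to 5.18 CPM in HFC. TTR, APOC3 and AHSG did not pass and reached at most 9.92, 1.25 and 1.31 CPM, each in HFC. Higher APOA1 went with higher markers of glia. On the mean log2 CPM of the oligodendrocyte and Schwann cell markers the libraries fell into 8 with values from 3.48 to 5.93 (LFC replicates 1, 5 and 7 and HFC replicates 10, 11, 13, 14 and 16) and 8 with values from 1.26 to 2.51. The same 8 libraries were the high ones on the pituicyte and astroglia list, at 4.199 to 6.25 against 2.43 to 3.07. APOA1 ranged from 5.30 to 7.45 log2 CPM in the 8 libraries with high glia markers and from 3.26 to 4.87 log2 CPM in the 8 with low ones, so those ranges did not overlap. Within these sets of libraries no relation of APOA1 to a marker list passed, with Pearson's r to the oligodendrocyte markers of 0.30 in the high set and -0.48 in the low set (n = 8 each, permutation, adjusted p = 0.37 for each, over 15 relations).

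**Figure D2:**
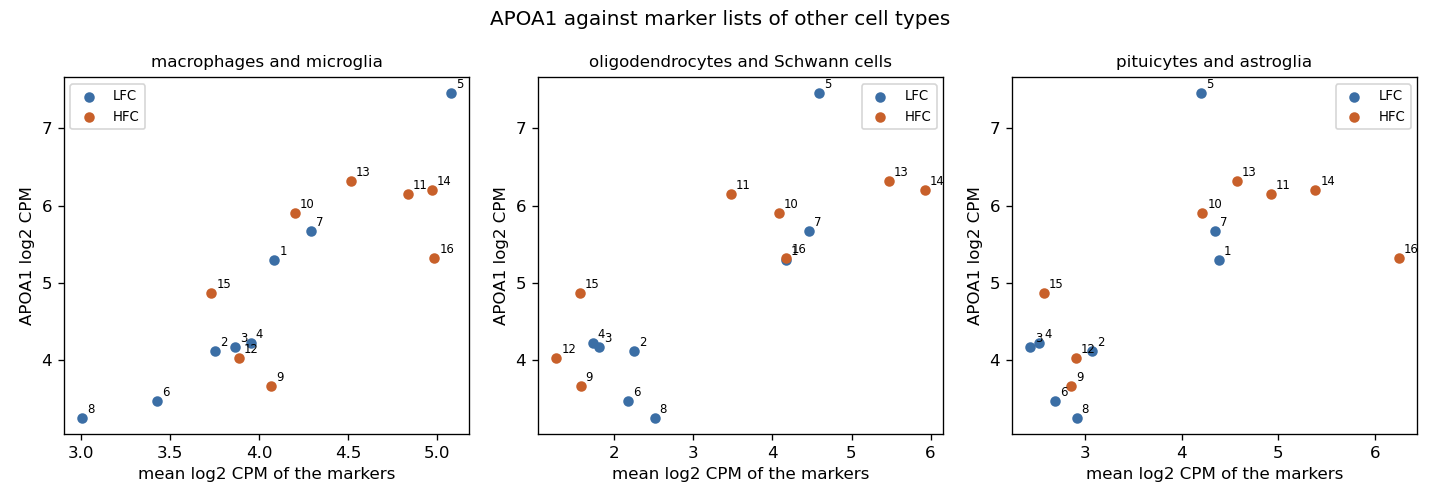
Level of APOA1 (log2 CPM, vertical axis) against the mean log2 CPM of 3 marker lists (horizontal axes), 1 point per library with its replicate number and colour by group. The 8 libraries with high oligodendrocyte and pituicyte markers all had APOA1 above 5.29 log2 CPM, and the 8 with low markers all had it below 4.88.

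Higher APOA1 also went with higher macrophage markers. Over the 16 libraries, with group means removed, Pearson's r between APOA1 and the mean of 10 macrophage and microglia markers was 0.85 (permutation, adjusted p = 0.0075) and Spearman's rho was 0.77 (permutation, adjusted p = 0.0307). Without the 2 libraries farthest from the middle of the marker range r was 0.73. Within the 8 libraries with high glia markers r was 0.59 and within the 8 with low ones it was 0.47 (n = 8 each, permutation, adjusted p = 0.37 for each). On the macrophage list too these sets did not overlap, at 4.085 to 5.078 mean log2 CPM against 3.005 to 4.066. Over the 16 libraries APOA1 had a like r to the oligodendrocyte list, at 0.81 (permutation, adjusted p = 0.0075), with a rho of 0.81 (adjusted p = 0.0165). To the pituicyte list r was 0.69 (permutation, adjusted p = 0.0432), and rho did not pass (adjusted p = 0.1247). NR1H3 had an r of 0.34 to the same macrophage markers (adjusted p = 0.55), and APOE one of 0.24 (adjusted p = 0.724). Of the marker lists NR1H3 was most related to that of adipocytes, with an r of 0.63 (permutation, adjusted p = 0.194), a rho of 0.56 (adjusted p = 0.332) and an r of 0.33 without 2 libraries. That list had a mean level of -0.01 to 1.09 log2 CPM in LFC and -0.49 to 2.64 in HFC, 3 of its 3 tested markers had a positive log2 fold change with a median of 0.98, and ADIPOQ was at 0 in at least 1 HFC library. Between the groups, 8 of the 10 macrophage markers had a positive log2 fold change with a median of 0.34, and the mean level of the list was 3.00 to 5.08 log2 CPM in LFC and 3.73 to 4.98 in HFC. No macrophage marker was at 0 in any library. The part of macrophages and adipocytes in the levels of NR1H3, APOE and APOA1 was not tested.

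ABCA1, the transporter that hands cholesterol to lipid-poor APOA1 and APOE, was much lower in 4 libraries than in the other 12. It ranged from 0.29 to 13.1 CPM in LFC with a median of 8.75 CPM, and from 0.97 to 17.8 CPM in HFC with a median of 9.75 CPM. The low libraries were LFC replicate 5, with 4 counts, and HFC replicates 13, 14 and 15, and HFC replicate 16 was the highest. The log2 fold change was -0.03 ± 0.53 (SE), with a 95% interval from -1.14 to 1.08, so a change of 2-fold in either direction lay within the interval. Its sign turned with the choice of libraries: without LFC replicate 5 and HFC replicates 13, 14 and 15 it was 0.31 (edgeR, adjusted p = 0.647). ABCA1 (ENSSSCG00000005423) is placed by RefSeq on chromosome 1 at 246144277 to 246278492.

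ABCG1, which exports cholesterol to mature lipoprotein particles, had its 4 lowest CPM values in the same libraries. On the TMM-scaled log2 scale HFC replicate 13, at 6.23, lay just above LFC replicate 6, at 6.21. It ranged from 47.1 to 140.3 CPM in LFC with a median of 88.2 CPM, and from 45.8 to 174 CPM in HFC with a median of 101 CPM. HFC replicate 14 was the lowest and HFC replicate 16 the highest of all, and the groups overlapped. The log2 fold change was 0.16 ± 0.23 (SE), with a 95% interval from -0.33 to 0.65, and it was -0.04 without HFC replicate 16. Within the other 12 libraries Pearson's r between ABCG1 and ABCA1 was 0.85 (n = 12, permutation, adjusted p = 0.143) and fell to 0.29 without 2 of them. ABCG1 lies on chromosome 13 at 205561927 to 205630797.

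The 4 libraries low in ABCA1 also had fewer counts in long genes relative to short genes. For each library the mean log2 CPM of the 10% of genes with the longest genomic span (over 166653 bases) minus that of the 10% with the shortest span (under 5741 bases) was computed, without the 8 genes. This measure was -1.85 in LFC replicate 5, -1.30 in HFC replicate 13, -0.89 in HFC replicate 14 and -0.59 in HFC replicate 15, and it ranged from -0.30 to 0.31 in the other 12. ABCA1 is a long gene, though under the cut of 166653 bases, ABCG1 is of middle span, and APOA1 and APOE are among the shortest. Within the 12 libraries Pearson's r between ABCA1 and the measure was 0.59 (n = 12, permutation, adjusted p = 0.318), and over all libraries no r is given because 4 stand apart. With the measure as a covariate, the log2 fold change of ABCA1 was 0.19 ± 0.20 (SE), that of NR1H3 was 0.80 ± 0.28 and that of SQLE was -0.35 ± 0.12, each in the edgeR fit and with no adjusted p below 0.309. The part of RNA quality in these levels was not tested.

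**Figure D3:**
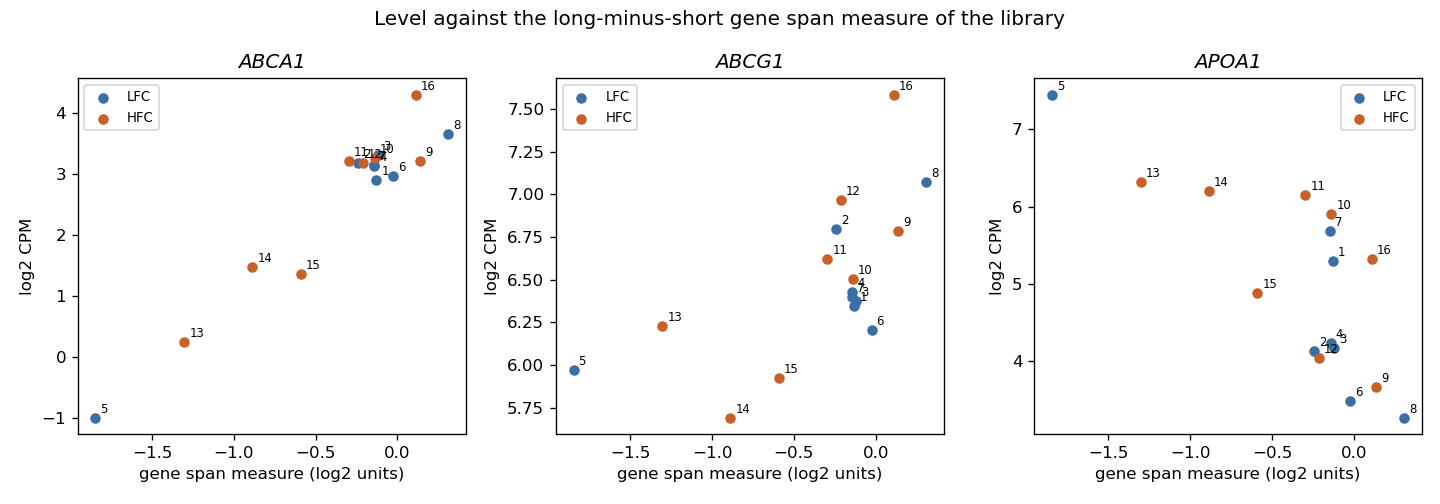
Level of ABCA1, ABCG1 and APOA1 (log2 CPM, vertical axes) against the difference in mean log2 CPM between the longest and the shortest 10% of genes (horizontal axes), 1 point per library with its replicate number. LFC replicate 5 and HFC replicates 13, 14 and 15 sit apart at the left with low ABCA1, 3 of them (not HFC replicate 13) have the lowest ABCG1, and LFC replicate 5 has the highest APOA1.

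In the wider list of efflux genes and receptor targets, 9 of the 12 genes tested had a positive log2 fold change and 3 a negative one, with a median of 0.16. The median was 0.0062 without HFC replicate 16, the library highest in ABCA1 and ABCG1, 0.081 without LFC replicate 6, 0.095 without LFC replicate 5, 0.10 without LFC replicate 3 and 0.25 without HFC replicate 15. It was 0.053 without LFC replicate 5 and HFC replicates 13, 14 and 16, 0.28 without LFC replicate 5 and HFC replicates 13, 14 and 15, and 0.093 in limma-voom. None was called, and 1 had an unadjusted p under 0.05. This was SMPDL3A, a phosphodiesterase known as a liver X receptor target in macrophages. It ranged from 0.86 to 1.90 CPM in LFC and from 1.11 to 5.997 CPM in HFC, with 4 HFC libraries above all of LFC, and its log2 fold change was 0.88 ± 0.34 (SE), and edgeR gave it an adjusted p of 0.715. ABCG4 and APOC1 had no named row and ABCG5 and ABCG8 did not pass the filter on low counts.

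SREBF2, the gene of the regulator itself, barely differed in mean level. It ranged from 93.8 to 143 CPM in LFC with a median of 134 CPM, and from 85.3 to 149 CPM in HFC with a median of 129 CPM. LFC replicate 5 and HFC replicate 15 were the lowest of their groups, and the groups overlapped. LFC glands averaged 126 ± 17.8 CPM against 128 ± 20.8 CPM across HFC glands (SD, n = 8 each), which gave a fitted log2 fold change of 0.05 ± 0.11 (SE) with a 95% interval from -0.18 to 0.28. SREBF2 lies on chromosome 5 at 6716139 to 6784640, where its model meets the end of SHISA8. Of the 6 genes around SREBP processing 4 had a positive log2 fold change and 2 a negative one, with a median of 0.05. No gene of that list had an unadjusted p under 0.05, and the smallest p belonged to INSIG1 (0.23) and INSIG2 (0.14), membrane proteins that hold SREBP back when sterol is plentiful, both values being log2 fold changes.

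SQLE, squalene epoxidase, which carries out an early oxygen-dependent step of sterol synthesis, had the lowest estimate of the set in HFC against LFC. It ranged from 20.1 to 29.4 CPM in LFC with a median of 22.7 CPM, and from 13.7 to 24.7 CPM in HFC with a median of 17.2 CPM. HFC replicates 9, 11, 14, 15 and 16 lay below every LFC library, whereas HFC replicates 10, 12 and 13 lay within the LFC range. LFC glands averaged 23.9 ± 3.68 CPM against 18.9 ± 3.99 CPM across HFC glands (SD, n = 8 each), which gave a fitted log2 fold change of -0.33 ± 0.13 (SE), or 0.796-fold. The 95% interval was -0.61 to -0.05, and edgeR gave an adjusted p of 0.753. With any single library left out the estimate stayed between -0.42 and -0.28. SQLE lies on chromosome 4 at 14667848 to 14700221.

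The synthesis list held 21 genes, all tested. Of these 16 had a negative log2 fold change and 5 a positive one, with a median of -0.08, and SQLE alone had an unadjusted p under 0.05. MVK, mevalonate kinase, was named after its value was seen. MVK ranged from 18.2 to 35.3 CPM in LFC and from 11.6 to 25.8 CPM in HFC, with a log2 fold change of -0.31 ± 0.17 (SE), and edgeR gave it an adjusted p of 0.922. The directions of the other synthesis genes rest on small values: without LFC replicate 5 the median of the list was 0.03.

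Uptake and lysosomal release genes showed no estimate of the size of NR1H3. Of 9 genes tested 3 had a positive and 6 a negative log2 fold change, with a median of -0.09, or 0.06 without LFC replicate 5, and none had an unadjusted p under 0.05. NPC1, which moves cholesterol out of lysosomes, had the smallest p with a log2 fold change of -0.22 ± 0.24 (SE), followed by LIPA, the lysosomal lipase, with -0.12 ± 0.13 (SE). Of the 11 genes listed, 2 did not pass the filter on low counts, NPC1L1 among them.

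**Figure D4:**
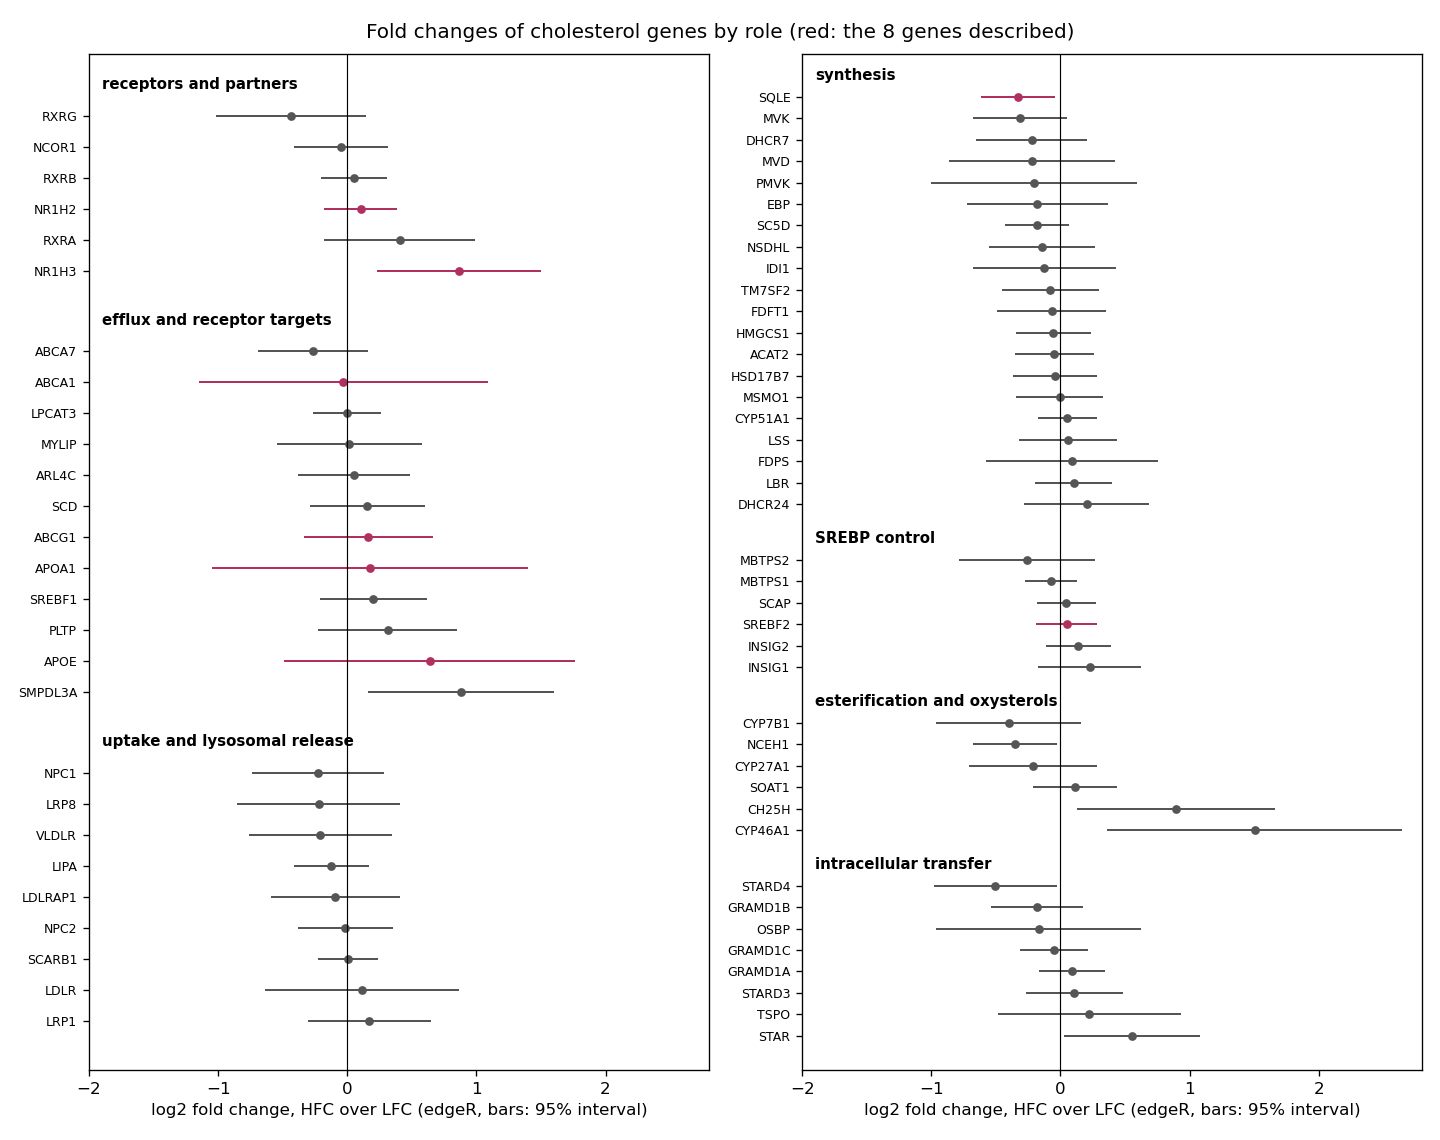
Log2 fold change of HFC over LFC (horizontal axis, points) with its 95% interval from edgeR (bars) for tested genes of 7 lists, the 8 genes of the set in red. The intervals of NR1H3, SMPDL3A, CYP46A1, CH25H and STAR lie above 0 and those of SQLE, NCEH1 and STARD4 lie below 0, and none of the genes plotted passed the adjusted threshold.

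To set efflux genes against synthesis and uptake genes, the mean log2 CPM of the tested efflux list minus that of the synthesis and uptake lists together was taken in each library. This balance ranged from -0.41 to -0.03 in LFC and from -0.17 to 0.74 in HFC. In 7 of 8 HFC libraries it lay above every LFC library, and HFC replicate 13 was the exception. The mean was -0.16 ± 0.12 in LFC and 0.15 ± 0.28 in HFC (SD, n = 8 each), a difference of 0.31 log2 units. The difference was 0.23 without HFC replicate 16, the library with the highest value, and 0.27 without LFC replicate 5, the library with the lowest.

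The genes of the set carried part of this balance. The lists of the balance held APOE, APOA1, ABCA1, ABCG1 and SQLE, and not NR1H3, NR1H2 or SREBF2. With the genes of the set left out of the lists the difference was 0.20, and 3 of 8 HFC libraries lay above all of LFC. With only APOE, APOA1, ABCA1 and ABCG1 set against SREBF2 and SQLE the difference was 0.58, and 5 of 8 HFC libraries lay above all of LFC. These genes did not share in it equally. In limma-voom the log2 fold change was 1.14 for APOE and 0.66 for APOA1, but 0.09 for ABCG1 and -0.15 for ABCA1. In the same fit it was 0.03 for SREBF2 and -0.35 for SQLE. HFC replicate 16, at the top of the balance over all genes of the lists, was also the library with the highest ABCA1 and ABCG1, the highest pituicyte markers (6.25 mean log2 CPM) and the lowest level of the anterior pituitary hormone genes (9.46 mean log2 CPM, against 11.7 to 13.8 in the rest). The part of gland composition in the balance was not tested. No p is given for the balance, since the genes were chosen with results of these data known.

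**Figure D5:**
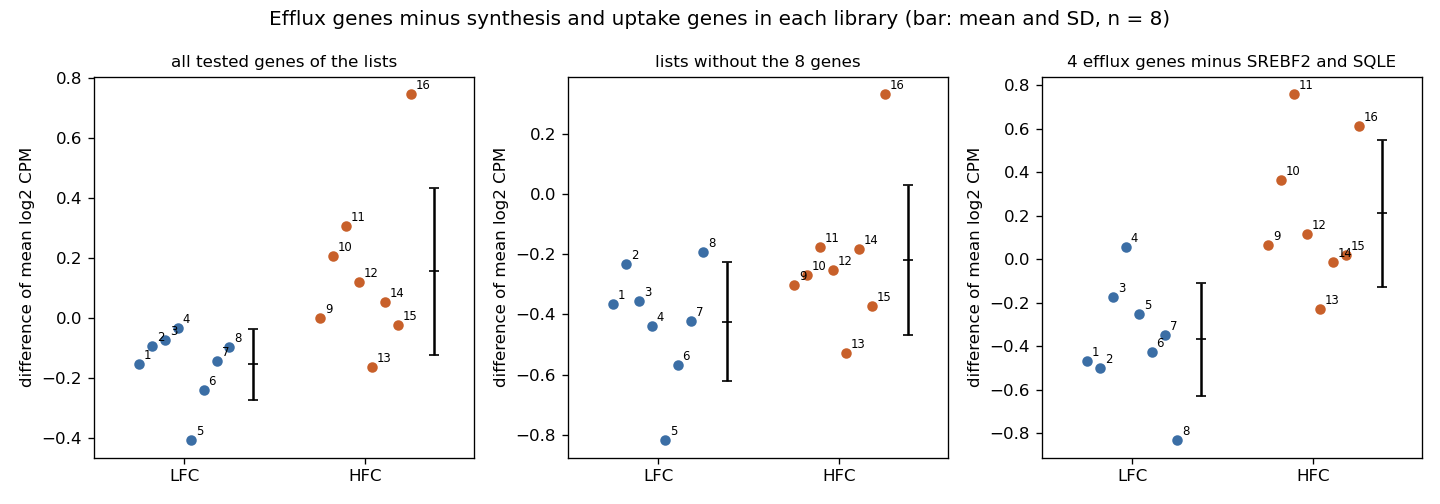
Mean log2 CPM of efflux genes minus that of synthesis and uptake genes (vertical axes) by group, 1 point per library with its replicate number and a bar for the mean and SD (n = 8), for all tested genes of the lists, for the lists without the 8 genes, and for 4 efflux genes against SREBF2 and SQLE. The difference between group means is 0.31, 0.20 and 0.58 log2 units from left to right.

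Few pairs of the set were related across libraries past the threshold. Over the 28 pairs, with group means removed, only ABCA1 with ABCG1 passed for both Pearson's r and Spearman's rho after adjustment over 100 relations. In the 12 libraries without the 4 low in ABCA1 the r of that pair was 0.85, no longer passed, and fell to 0.29 without 2 of them. Spearman's rho in the 12 was 0.57 (permutation, adjusted p = 0.4655). APOE with ABCA1 passed for Pearson's r alone (permutation, adjusted p = 0.0383, and 0.255 for Spearman's rho), as a negative relation with an r of -0.29 without 2 libraries. NR1H2 and APOA1 were also negatively related to ABCA1 and did not pass (permutation, adjusted p = 0.144 and 0.19), with an r without 2 libraries of -0.35 and -0.20. For these pairs no r over all 16 libraries is given, since 4 libraries stand apart in ABCA1. NR1H3 and NR1H2 had an r of 0.68 (permutation, adjusted p = 0.0888) and a rho of 0.67 (adjusted p = 0.165). Without LFC replicate 5 and HFC replicate 10 that r was 0.61. The 4 libraries that stand apart in ABCA1 enter this r over all. They had NR1H2 at 6.21 to 6.54 log2 CPM, against 5.62 to 6.17 in the other 12. NR1H3 did not follow the transporters: its r was -0.42 to ABCA1 without 2 libraries and -0.40 to ABCG1 over all (permutation over all libraries, adjusted p = 0.55 for each), and it was 0.32 to APOE (adjusted p = 0.55). The same 4 libraries enter the r values to ABCG1 and APOE. SREBF2 and SQLE had an r of 0.29 (permutation, adjusted p = 0.71).

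For each gene the tested genes most like it were taken by Spearman's rho over the 16 libraries, as a description. NR1H3 was most like TAF8 (0.90), TMEM243 (0.81) and AMHR2 (0.81). SQLE was most like HSPA14 (0.83), ssc-mir-9810 (0.80) and CCDC85C (0.79), and SREBF2 was most like PDHX (0.77), JAG2 (0.76) and KPNA7 (0.73). NR1H2 was most like ADPRHL2 (0.91), ARFRP1 (0.90) and AUP1 (0.89), and APOE was most like MAPK3 (0.87), POLR3K (0.86) and RANBP3 (0.85). APOA1 was most like SLC25A47 (0.95), C6orf120 (0.94) and APOD (0.94), the last an apolipoprotein of glia and other tissues. ABCA1 was most like CLOCK (0.94), ZSWIM5 (0.92) and TMOD2 (0.91), and ABCG1 was most like ZCCHC2 (0.91), LRP12 (0.91) and DGKB (0.91). For ABCA1 and ABCG1 the 4 low libraries enter these values.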

How the data were processed

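The authors deposited counts per gene for the 16 libraries, not normalised. According to the submitters' processing notes and the study's methods, single reads from poly(A) libraries that keep no strand were checked with FastQC, aligned to Sscrofa11.1 with STAR and counted with RSEM, and technical repeats were joined. A further deposited table with group means, folds and p-values of the authors' own comparison was used for symbols and positions only. Symbols came from that table (10091 genes), from a name table (5454) and, where 50% or more of the model lay in a RefSeq gene, from RefSeq (379), and 9956 genes had none.

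Groups were compared in R 4.3.3 with edgeR 4.0.16 (glmQLFit and glmQLFTest) on the 16 libraries together, scaled by TMM and filtered by filterByExpr, with no covariate and Benjamini-Hochberg adjustment over the 14319 genes tested. Of 25880 genes, 6308 had no count. CPM was computed on total counts, and log2 CPM used TMM scaling and a prior count of 2. Standard errors were derived from the log2 fold change and its F statistic. Relations used 100000 permutations of libraries within groups (numpy 2.4.6). The sets of libraries used within relations were chosen after the marker and span values were seen. DESeq2 1.42.0, limma 3.58.1, other scalings, filters and left-out libraries were tried as alternatives. No library pair of the same group was a duplicate (lowest chi-square per degree of freedom 27.1 over 56 pairs). Each library is 1 gilt according to the study, and the edgeR p-values set the group difference against the spread between these libraries.

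The 8 genes, the lists and the markers were chosen with earlier results of these data known. Named genes were the 8 genes, the genes of each list with an unadjusted p under 0.05 or otherwise the 2 with the smallest p, and the 3 genes most like each of the 8. Gene sequences were not used here, and levels were not compared between genes because transcript lengths were not used. Some list genes are counted in their lists but are not reported here by name or plotted.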

Additional observations from a re-analysis of the deposited data

Results flagged for a closer look

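The level of ABCA1 in LFC replicate 5 stood far from its group. It was -1.003 log2 CPM, whereas the other 7 LFC libraries lay between 2.90 and 3.66 log2 CPM, and the gap took 0.838 of the range of the group, above Dixon's critical value for 8 samples. It rests on 4 counts. Such a gap was looked for in 18 cases, and chance alone gives about 1 in 20, or 0.9 here. The same library had the lowest balance of efflux against synthesis and uptake genes and the highest APOA1.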

How the results depend on the processing

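In all 26 alternative fits 0 of the 8 genes were called. The number of genes called was 5 in DESeq2 and 0 in every other fit. The number of genes at an unadjusted p under 0.05, 834 in the fit as reported, was 1387 with no filter on low counts, 1832 with the gene span measure as a covariate, 1470 without LFC replicate 5 and HFC replicates 13, 14 and 15, and 588 to 1716 with any single library left out (1716 without LFC replicate 5). Of the 8 genes, 1 stayed at an unadjusted p under 0.05 without LFC replicate 5 and HFC replicates 13, 14 and 15, and 2 to 4 did with single libraries left out. In limma-voom 3 of the 8 genes had such a p, beside 556 of the 14319 genes tested. The log2 fold change of ABCA1 ranged from -0.38 to 0.13 with single libraries left out, and it was 0.01 without LFC replicate 3, 0.08 without LFC replicate 8, 0.13 without HFC replicate 13, 0.10 without HFC replicate 14 or 15, 0.19 with the span covariate and 0.31 without LFC replicate 5 and HFC replicates 13, 14 and 15. That of ABCG1 was -0.037 without HFC replicate 16 (range to 0.26). That of SREBF2 was -0.0047 without HFC replicate 16 (range to 0.10) and -0.095 without LFC replicate 5 and HFC replicates 13, 14 and 16, 4 libraries that earlier results of these data set apart. That last setting also gave a median of -0.067 for the SREBP processing list. The balance was 0.58 with 4 efflux genes against SREBF2 and SQLE and 0.23 to 0.36 with single libraries left out. The cause of these shifts was not tested. The span covariate, the second set of left-out libraries and the narrower balances were chosen after seeing the data. ABCA1 had no value with at least 10 counts asked of every library, since LFC replicate 5 had 4. No paired analysis was possible because the groups share no replicate number.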

Other observations

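Genes that make and break down oxysterols, the ligands of the liver X receptors, held the estimate farthest from 0 of the 7 cholesterol lists. CYP46A1, which makes 24S-hydroxycholesterol in neurons, ranged from 3.43 to 8.50 CPM in LFC and from 2.66 to 46.3 CPM in HFC, with a log2 fold change of 1.504 ± 0.54 (SE), and edgeR gave it an adjusted p of 0.655. The groups overlapped, with 3 HFC libraries above all of LFC and 2 below it. CH25H, which makes 25-hydroxycholesterol, ranged from 1.92 to 5.40 CPM in LFC and from 2.82 to 14.1 CPM in HFC, with a log2 fold change of 0.90 ± 0.36 (SE), and edgeR gave it an adjusted p of 0.753. NCEH1, a hydrolase of cholesteryl esters, ranged from 95.6 to 137 CPM in LFC and from 53.2 to 132 CPM in HFC, with a log2 fold change of -0.35 ± 0.15 (SE), and edgeR gave it an adjusted p of 0.804. The 6 tested genes of that list had 3 positive and 3 negative values with a median of -0.05, and SOAT2 and LCAT did not pass the filter on low counts.

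Of 8 genes for cholesterol transfer inside the cell, 4 had a positive and 4 a negative log2 fold change, with a median of 0.02. STARD4, a soluble sterol carrier that SREBP2 controls, ranged from 1.43 to 3.63 CPM in LFC and from 1.09 to 2.73 CPM in HFC, with a log2 fold change of -0.50 ± 0.22 (SE), and edgeR gave it an adjusted p of 0.824. STAR, the mitochondrial cholesterol importer of steroid-making cells, stayed under 1.2 CPM in every library, with a log2 fold change of 0.55 ± 0.25 (SE), and edgeR gave it an adjusted p of 0.826.

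Markers of other cell types had estimates in both directions between the groups, and none of the lists was tested. Of the pituicyte and astroglia markers 8 of 9 had a positive log2 fold change (median 0.88), as had 3 of 3 oligodendrocyte markers (1.29), 4 of 4 melanotroph markers (3.33), 5 of 6 fibroblast markers (0.16), 3 of 3 adipocyte markers (0.98) and 2 of 2 hepatocyte markers (0.71), whereas 6 of 6 endothelium markers (-0.17) and 5 of 6 genes of anterior pituitary hormone cells (-0.35) had a negative one.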
